A study of Mus musculus with 16 samples.

Results

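Loss of the histone deacetylase Hdac2 alone was accompanied by a higher signal of many genes in growing mouse oocytes. Of these, 6 are described here: Foxa3, Hdx, Hmgn3, Tceal8, Gdf11 and Smoc1. Each was read by 1 probe set, a group of short array probes for one transcript, out of 21218 probe sets that the platform annotation ties to exactly 1 gene symbol and 35556 on the array. The genes were picked by name because they stood high in the Hdac2 knockout against wild type, so that contrast is given as a description and not as a test. Ranked by their rise in that contrast, they held places 6 (Foxa3), 7 (Hmgn3), 9 (Hdx), 11 (Gdf11), 15 (Tceal8) and 16 (Smoc1). They were also picked with the double-knockout values known.

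The oocytes came from ovaries of C57BL/6 mice aged 12 days, and each array measured RNA pooled from 80 oocytes. There were 4 genotypes with 4 biological replicates each: wild type, HDAC1 conditional knocked-out, HDAC2 conditional knocked-out and HDAC1/2 conditional knocked-out, called the double knockout below. Deletion in the 3 mutant genotypes used conditional alleles and the Zp3-Cre transgene, whose promoter is active in growing oocytes. The sources used here do not say whether the wild-type animals carried Cre or an unrecombined conditional allele. Nothing further ties a replicate to an animal, so p-values measure the spread between these samples. The stated purpose was to find what the enzymes do in vivo while the oocyte grows.

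HDAC1 and HDAC2 are closely related enzymes that take acetyl groups off histone tails and sit in the same co-repressor complexes, where either can occupy the place of the other. Removal of acetyl groups is associated with closed, silent chromatin, and loss of the enzymes can leave genes active that are normally held down. Among the 6 genes, Foxa3 encodes a forkhead transcription factor best known from liver and gut endoderm, Hdx a divergent homeobox protein, Hmgn3 a nucleosome-binding protein of the high mobility group and Tceal8 a small nuclear protein resembling the elongation factor TFIIS. Gdf11 encodes a secreted ligand of the TGF-beta family that signals through activin receptors, and Smoc1 a secreted calcium-binding matrix protein known to oppose BMP signals.

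The stretches just upstream of the start sites are shown as a description, since the promoter is where co-repressor complexes are commonly recruited. Binding and acetylation were not measured here, and a link between these sequences and the signals was not tested. RefSeq promoters on build GRCm38.p6 were held for 4 of the 6 genes, and the 250 bases before the start site are printed 5′ to 3′, with capitals marking matches to the GC box (GGGCGG), the CCAAT box (CCAAT) and the TATA box (TATAAA) on either strand.
Foxa3, chr7:19023540-19023789, minus strand: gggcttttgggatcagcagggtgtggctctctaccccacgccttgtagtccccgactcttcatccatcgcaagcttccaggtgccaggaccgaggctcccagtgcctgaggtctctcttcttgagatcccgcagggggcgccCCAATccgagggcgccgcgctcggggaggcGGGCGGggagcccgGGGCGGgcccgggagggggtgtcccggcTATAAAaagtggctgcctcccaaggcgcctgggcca
Gdf11, chr10:128891719-128891968, minus strand: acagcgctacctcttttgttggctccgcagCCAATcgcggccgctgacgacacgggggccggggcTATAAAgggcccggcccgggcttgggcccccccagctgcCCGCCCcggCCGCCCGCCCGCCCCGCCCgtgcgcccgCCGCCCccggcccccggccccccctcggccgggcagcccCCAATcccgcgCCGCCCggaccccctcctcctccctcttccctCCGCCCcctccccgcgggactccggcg
Hdx, chrX:111697080-111697329, minus strand: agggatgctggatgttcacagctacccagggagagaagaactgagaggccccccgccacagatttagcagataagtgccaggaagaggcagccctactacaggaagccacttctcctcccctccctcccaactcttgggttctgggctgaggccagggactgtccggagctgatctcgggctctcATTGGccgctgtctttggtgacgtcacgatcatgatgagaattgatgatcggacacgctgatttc
Tceal8, chrX:136172252-136172501, minus strand: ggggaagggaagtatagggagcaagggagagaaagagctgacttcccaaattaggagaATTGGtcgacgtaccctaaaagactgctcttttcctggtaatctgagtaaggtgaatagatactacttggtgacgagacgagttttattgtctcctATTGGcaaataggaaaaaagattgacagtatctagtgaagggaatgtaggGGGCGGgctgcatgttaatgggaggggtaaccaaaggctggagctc
All 4 printed stretches held CCAAT, which 33.8% of 32851 mouse promoter stretches of the same length hold. GGGCGG was present in 3 of them (32.7% of all), with 8 partly overlapping matches in Gdf11, 2 in Foxa3 and 1 in Tceal8. TATAAA was present in Foxa3, 36 bases before the start, and in Gdf11, 185 bases before it, against 12.4% of all. The Foxa3 and Gdf11 stretches were also rich in the dinucleotide CG, with 18 and 33 copies, more than in 78.3% and 96% of all stretches. Those of Hdx and Tceal8 held 8 and 5, close to the median of 6. Searches on both strands for an E-box (CACGTG), a forkhead motif (TGTTTAC), an ETS motif (CCGGAAG) and a homeobox motif (TAATTA) gave no match in the 4 stretches. These motifs occur in 6.02%, 3.17%, 6.91% and 4.84% of all.

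The genes lay on 5 chromosomes: Foxa3 on 7, Hmgn3 on 9, Gdf11 on 10, Smoc1 on 12, and Hdx and Tceal8 on X. Values are the deposited array signals on a log scale taken as log2, where 1 unit stands for a doubling; the base is not stated by the labels. Array medians lay between 4.46 and 4.59, and arrays of one genotype correlated at 0.992 to 0.995 across probe sets. The targeted genes were checked: Hdac1 signal stood at 15.8% of wild type when Hdac1 alone was deleted, at 32.5% in the double knockout and at 129% when Hdac2 alone was deleted. Hdac2 signal stood at 93.5% of wild type after deletion of Hdac2 alone and at 86.2% after deletion of both; the exons deleted and those the probe set reads are not given here, so the deletion of Hdac2 rests on the labels.

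Defining oocyte markers were bright on every array, and none of 11 (Zp1, Zp2, Zp3, Gdf9, Bmp15 and others) passed the test in the Hdac2 knockout, nor had an unadjusted p under 0.05 in limma. In the double over the Hdac1 knockout 1 of the 11 fell, the oocyte transcription factor Figla (-0.48; limma adjusted p = 0.000951), and 4 fell with arrays centred on their medians or quantile normalized. Of 10 measured granulosa markers 1 fell in the Hdac2 knockout against wild type (Kitl, -0.50). The summed linear signal of the list lay between 1030 and 1130 on wild-type arrays and 1010 and 1150 in the Hdac1 knockout. It lay between 922 and 1020 in the Hdac2 knockout and 580 and 662 in the double knockout. Nr5a2, bright in these oocyte samples, went from 9.82 in wild type to 8.74 in the double knockout; no granulosa marker rose in the double over the Hdac1 knockout, and Amh, a defining granulosa product, stayed between 3.43 and 3.49 in the 4 group means, below every array median. Theca and stroma markers (summed signal 148 to 163 over all arrays) had no call in the Hdac2 knockout and 1 higher in the double over the Hdac1 knockout (Acta2, 0.25, a call lost when arrays were centred on their medians), and blood, immune and endothelial markers (430 to 535 in the 3 other genotypes, 243 to 297 in the double knockout) had none there and 1 lower in the double over the Hdac1 knockout (Pecam1, -1.51). The part of these markers in the results below was not tested. In pooled oocytes, fewer cells with a transcript and less of it per cell cannot be told apart.

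Foxa3 stood at 3 levels, with steps of near-equal size between them. Its 4 wild-type arrays read 4.77, 4.46, 5.22 and 5.09, and the Hdac1-knockout arrays 4.85, 5.22, 4.91 and 4.70. The Hdac2-knockout arrays read 6.97, 6.49, 7.17 and 7.27, and the double-knockout arrays 9.20, 8.65, 9.23 and 8.77. Wild type and Hdac1 knockout overlapped, every Hdac2-knockout array lay above both (6.34% of all probe sets had every Hdac2-knockout array above every wild-type array, the contrast that chose the genes), and every double-knockout array lay above every Hdac2-knockout array. The Hdac2 knockout exceeded wild type by 2.09 ± 0.19 (SE), which is 4.26-fold. From the Hdac2 to the double knockout Foxa3 was a further 3.96-fold higher (log2 1.99, 95% interval 1.57 to 2.40), and 51.3% of the total log2 difference of 4.08 between double knockout and wild type was present in the Hdac2 knockout.

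Hdx and Tceal8, the 2 X-linked genes, had the larger part of their difference in the Hdac2 knockout and a smaller further step. Hdx read 4.54, 4.51, 4.41 and 4.55 on the wild-type arrays and 4.05, 4.64, 4.64 and 4.29 on those of the Hdac1 knockout. It stood at 6.66, 6.39, 6.13 and 6.86 in the Hdac2 knockout and at 6.97, 7.17, 7.22 and 7.05 in the double knockout. The lowest double-knockout array was 0.11 above the highest Hdac2-knockout array, and the means differed 1.51-fold (log2 0.60, 95% interval 0.29 to 0.90). Tceal8 read 7.65, 7.37, 7.24 and 7.65 on the wild-type arrays and 7.94, 7.64, 7.35 and 7.10 in the Hdac1 knockout. Its Hdac2-knockout arrays were at 8.66, 9.06, 9.41 and 9.26 and its double-knockout arrays at 9.63, 9.81, 9.71 and 9.61, separated by 0.20. The further step of Tceal8 was 1.5-fold (log2 0.59, 95% interval 0.22 to 0.95). The shares of the total log2 difference present in the Hdac2 knockout were 77.2% for Hdx and 73.4% for Tceal8.

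Hmgn3 reached nearly its full height when Hdac2 alone was deleted. Wild-type arrays read 5.91, 6.12, 6.23 and 6.07, and Hdac1-knockout arrays 5.89, 5.85, 5.93 and 5.57. The Hdac2-knockout arrays lay at 8.25, 8.01, 8.12 and 8.19, and the double-knockout arrays at 8.22, 8.37, 8.18 and 8.41. The arrays of these last 2 genotypes overlapped and stood apart from the other 8. The further step was 0.15 (95% interval -0.04 to 0.34), and 93.1% of the total log2 difference was present in the Hdac2 knockout. Hmgn3 also had the smallest standard error of the 6 genes, 0.09.

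**Figure D1:**
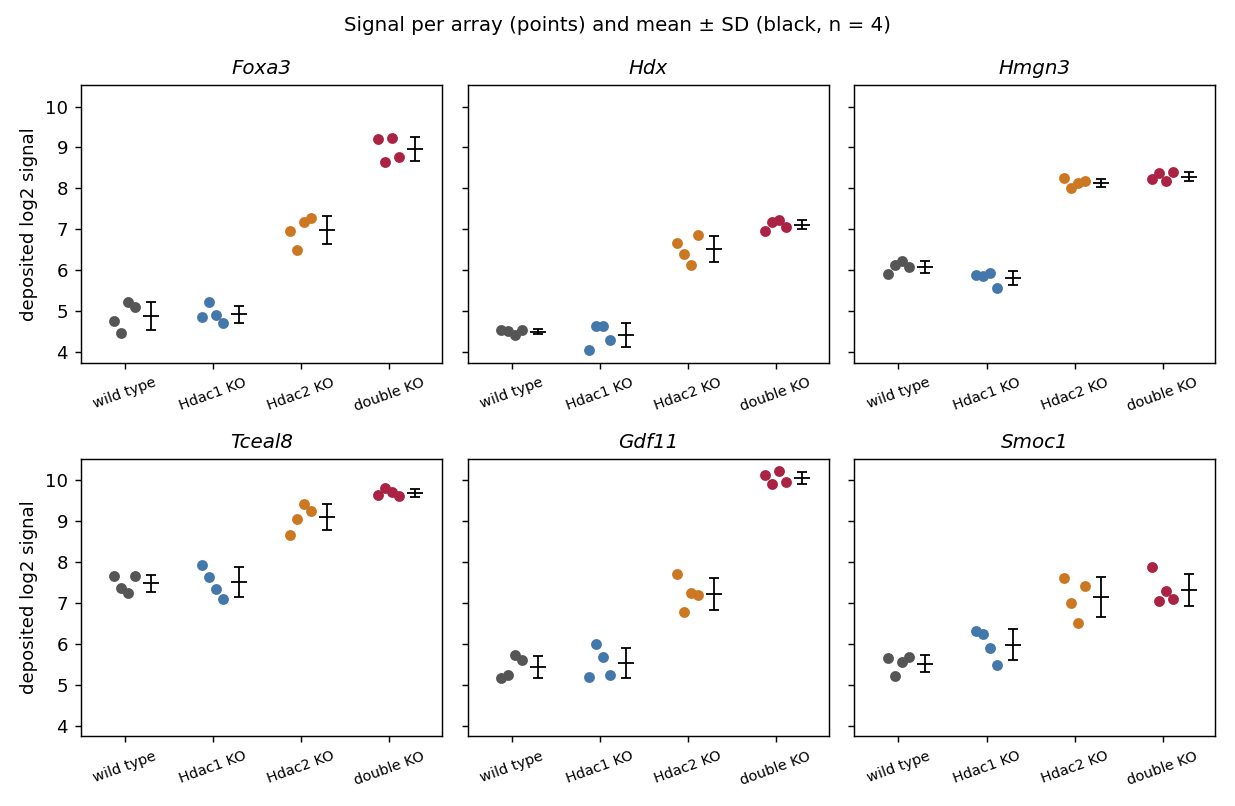
Deposited log2 signal (vertical axis) of the 6 genes in each of the 16 arrays, grouped by genotype (KO, knockout); coloured points are arrays and the black mark with bars is the mean ± SD (n = 4). Wild type and Hdac1 knockout overlap for every gene, while Foxa3 and Gdf11 show a separate middle level in the Hdac2 knockout and the arrays of Hdac2 and double knockout overlap for Hmgn3 and Smoc1.

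Gdf11 took its larger step second. Its wild-type arrays read 5.18, 5.25, 5.72 and 5.60, and the Hdac1-knockout arrays 5.20, 5.99, 5.67 and 5.25. The Hdac2-knockout arrays were at 7.72, 6.78, 7.24 and 7.19, and the double-knockout arrays at 10.13, 9.90, 10.22 and 9.95. The Hdac2-knockout arrays formed a separate middle level, spread over 0.95, while the double-knockout arrays lay within 0.32 of each other. The Hdac2 knockout exceeded wild type 3.47-fold, and the double knockout was 7.06-fold above the Hdac2 knockout (log2 2.82, 95% interval 2.40 to 3.24). Only 38.9% of the total log2 difference of 4.61 was present in the Hdac2 knockout, the lowest share of the 6 genes.

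Smoc1, like Hmgn3, had Hdac2-knockout and double-knockout arrays that overlapped, with wider spread. Wild-type arrays were at 5.65, 5.21, 5.55 and 5.67, and Hdac1-knockout arrays at 6.31, 6.24, 5.89 and 5.49. The Hdac2-knockout arrays were at 7.62, 7, 6.52 and 7.42, and the double-knockout arrays at 7.87, 7.04, 7.29 and 7.10. The lowest Hdac2-knockout array stood 0.21 above the highest Hdac1-knockout array. The further step was 0.18 (95% interval -0.33 to 0.69). Leaving out the lowest array, replicate 3 of the Hdac2 knockout, gave -0.02. Of the total log2 difference 89.8% was present in the Hdac2 knockout.

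Across the 6 genes, 4 were called higher in the double than in the Hdac2 knockout and 2 were not, with a median further step of 0.59. Of all probe sets tested 16.8% were called higher in this comparison, and 15.7% had every double-knockout array above every Hdac2-knockout array; nothing is read from the members' count against these shares. This comparison shares the 4 Hdac2-knockout arrays with the contrast that ranked the genes, which favours genes whose Hdac2-knockout values happened to be high and so pulls the further step down, and the genes were picked with the double-knockout values known. The further steps are therefore given as values with intervals and without p-values. Set against each other on the log2 scale, the further step exceeded the first by 1.03 ± 0.33 (SE) in Gdf11, differed from it by -0.11 ± 0.33 in Foxa3 and fell short of it by values from -1.91 ± 0.15 in Hmgn3 to -1.03 ± 0.29 in Tceal8. These differences contain the ranking contrast and were not tested.

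The double knockout was also compared with the Hdac1 knockout, which describes Hdac2 deletion in oocytes that already lack Hdac1. No array of this comparison entered the contrast that ranked the genes. The double-knockout values were known when the 6 were picked, so the values below are not independent of the choice. They are no separate support for the rise and are given without p-values. All 6 genes rose (18.7% of all probe sets tested were called higher), and for each of the 6 every double-knockout array lay above every Hdac1-knockout array (17% of all). Nothing is read from the members' counts against these shares. The narrowest gap between the groups was 0.73, in Smoc1, and the widest 3.91, in Gdf11. Gdf11 rose 23-fold (4.52 ± 0.19 SE) and Foxa3 16.5-fold (4.04 ± 0.19). Hdx rose 6.5-fold, Hmgn3 5.59-fold, Tceal8 4.53-fold and Smoc1 2.54-fold (log2 1.34, 95% interval 0.83 to 1.85). The median difference of the 6 genes was 2.59, and that of all probe sets tested -0.014.

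**Figure D2:**
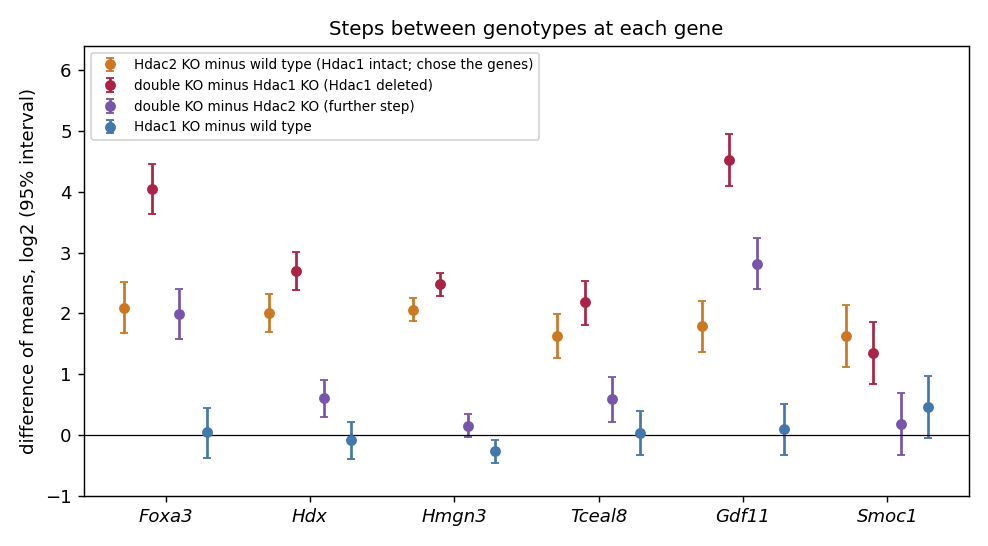
Differences of genotype means on the log2 scale (vertical axis) with 95% intervals for the 6 genes (KO, knockout): orange, Hdac2 knockout minus wild type, which chose the genes; red, double minus Hdac1 knockout; purple, double minus Hdac2 knockout; blue, Hdac1 knockout minus wild type. Red points range from 1.34 (Smoc1) to 4.52 (Gdf11), and blue points from -0.27 (Hmgn3) to 0.46 (Smoc1).

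The rise in the absence of Hdac1 was not shared by everything that stood high in the Hdac2 knockout. Among the 16 probe sets with the largest rise in the Hdac2 knockout, down to Smoc1, the 10 that are not among the 6 genes had 2 higher, 5 lower and 3 not past the test in the double over the Hdac1 knockout. Some of the lower ones are probe sets of the same gene, Tceanc2. As the 6 genes were picked with the double-knockout values known, nothing is read from how the 10 differ from them. The 2 higher ones were Gpat3, an acyltransferase of lipid synthesis (2.78), and Slc38a2, an amino acid transporter (4.21), and the first of the whole ranking, the metallothionein Mt1, stood at 4.55 in the Hdac2 knockout and -0.07 in this comparison; these were named after their values were seen. Over all probe sets, 606 (2.86%) were called higher when Hdac2 alone was deleted, 3964 were higher in the double over the Hdac1 knockout, and 428 were in both lists, which is 70.6% of the former and 10.8% of the latter.

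**Figure D3:**
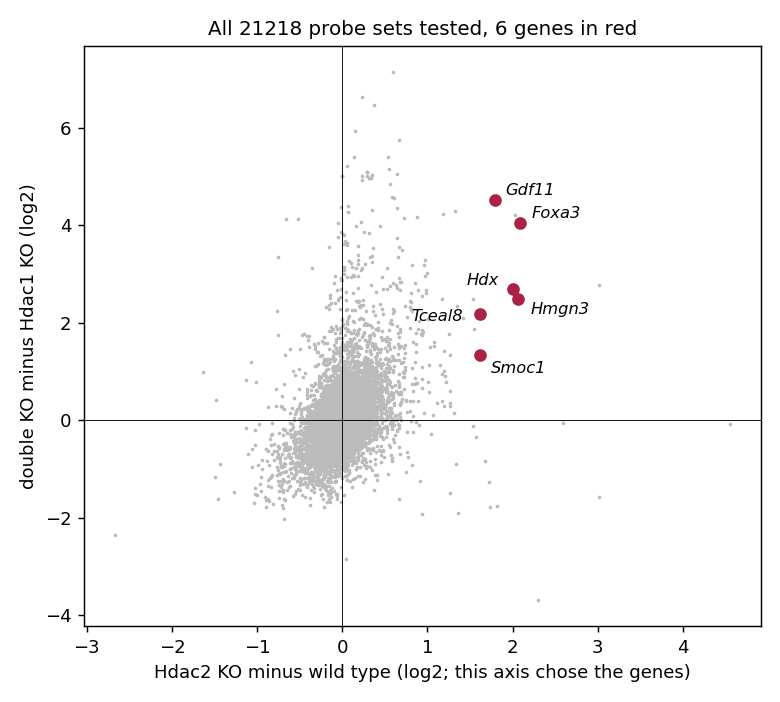
Each grey point is 1 of 21218 probe sets, placed by its log2 difference between Hdac2 knockout and wild type (horizontal) and between double and Hdac1 knockout (vertical); the 6 genes are red. The horizontal axis chose the genes; on the vertical axis they run from 1.34 for Smoc1 to 4.52 for Gdf11, and some grey points as far to the right lie near or below 0.

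Deletion of Hdac1 alone left all 6 genes without a call, as it did nearly all probe sets tested. In the Hdac1 knockout against wild type, 0 of 6 passed by limma, and 0.0707% of all probe sets tested were called. Nothing is read from the members' count against this share. Of the 6, 1, Hmgn3, had an unadjusted p under 0.05 in limma, with a 95% interval that left out 0. Hmgn3 was at 5.81 ± 0.16 (SD, n = 4) against 6.08 ± 0.14 in wild type, a difference of -0.27 (interval -0.46 to -0.08; limma adjusted p = 0.378; exact permutation p = 0.0571). Smoc1 had the largest difference, 0.46 (interval -0.05 to 0.97; limma adjusted p = 0.616), with 3 of 4 Hdac1-knockout arrays above all wild-type arrays. The intervals of the other 4 were -0.38 to 0.45 for Foxa3, -0.40 to 0.22 for Hdx, -0.33 to 0.40 for Tceal8 and -0.33 to 0.51 for Gdf11. The Hdac1-knockout animals carried Zp3-Cre as the other mutants did, and an effect of Cre itself was not tested. This comparison shares the 4 wild-type arrays with the one that ranked the genes.

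Adding the changes of the single knockouts on the log2 scale fell short of the double knockout for 5 of the 6 genes, counted by sign alone. Of all probe sets tested, 23.3% departed from the sum in either direction at an adjusted p under 0.05 in limma. Nothing is read from the members' count against this share. The double knockout lay above the sum by 2.73 ± 0.27 (SE) in Gdf11 and by 1.95 ± 0.27 in Foxa3. The departures were 0.69 ± 0.20 in Hdx, 0.56 ± 0.24 in Tceal8 and 0.42 ± 0.12 in Hmgn3, and Smoc1 had -0.27 ± 0.33. Put as a ratio, the rise on Hdac2 deletion was 2.52 times as large on the log2 scale without Hdac1 as with it in Gdf11, 1.93 times in Foxa3, 1.34 in Hdx and in Tceal8, 1.21 in Hmgn3 and 0.83 in Smoc1. These departures contain the ranking contrast and carry no test. The SD over the 4 Hdac2-knockout arrays was 0.39 in Gdf11, 0.32 in Hdx and 0.32 in Tceal8, against 0.15, 0.11 and 0.09 in the double knockout. The SDs of these genes in the Hdac1 knockout were 0.37, 0.29 and 0.36, so the wider spread was not particular to the Hdac2 knockout. In the other genes the SDs of Hdac2 and double knockout lay closer: 0.35 and 0.30 in Foxa3, 0.10 and 0.11 in Hmgn3, 0.49 and 0.38 in Smoc1.

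Likeness to other genes was measured by Pearson's r over the 16 arrays, which mostly reflects the 4 genotype levels and is given as a description. Foxa3 and Gdf11 were each other's closest pair among the 6 (r = 0.985), and after each genotype's mean was taken off their r was 0.70, the highest of the 15 pairs. Hdx and Hmgn3 followed (0.976; 0.20 without the genotype means). Outside the 6, Gdf11 was most like Zhx1 (0.990), a zinc finger and homeobox gene, Vasn (0.990), which encodes a TGF-beta binding membrane protein, and Ppp1r14b (0.988). Foxa3 was most like Gdf11, then Ftl1 (0.981), the ferritin light chain, and Crym (0.980). Hdx was most like Diaph2 (0.979), a formin, Hmgn3 and Amer1 (0.973), and Hmgn3 most like Hdx, Diaph2 (0.967) and Tpst1 (0.967), a tyrosine sulfotransferase. Tceal8 followed Man1c1 (0.977), Rpl27a (0.965), whose many processed copies make its probe set uncertain, and Decr1 (0.959). Smoc1 followed Msi2 (0.952), an RNA-binding protein, Pip5kl1 (0.936) and Zfp410 (0.924). Between the Hdac2 and the double knockout, Zhx1 and Vasn differed by 1.74 and 1.88 and Diaph2 and Msi2 by 0.14 and 0.05; as r picked them for likeness, this is no separate result.

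Few relatives of the 6 genes passed in the Hdac2 knockout, where 2.86% of all probe sets rose and 2.74% fell; in the double over the Hdac1 knockout 18.7% rose and 20.1% fell. Foxa1 and Foxa2, pioneer factors of endoderm, differed from wild type by 0.07 and 0.00 when Hdac2 alone was deleted, and both rose in the double over the Hdac1 knockout, 2.12-fold and 1.27-fold, from dim wild-type signals of 4.15 and 4.27 (limma adjusted p = 1.47e-05 and 0.0027). Of 14 measured liver genes known to be bound by FOXA factors, 0 passed in the Hdac2 knockout (median -0.04), and in the double over the Hdac1 knockout 5 rose, 2 fell and 7 did not pass (median 0.10). Hnf4a, a liver nuclear receptor, rose 2.47-fold there, Cebpa, a leucine zipper factor, 1.84-fold and Ttr, the thyroid hormone carrier transthyretin, 1.74-fold, while Onecut1 fell by 0.88. Among the other HMGN genes, 0 of 3 passed when Hdac2 alone was deleted. In the double over the Hdac1 knockout Hmgn5 rose 3.12-fold (limma adjusted p = 3.02e-05), Hmgn1 fell by 0.20 and Hmgn2 differed by 0.12 without passing. Of 11 measured POU-class homeobox genes, relatives of Hdx, 0 passed in the Hdac2 knockout and 0 rose and 2 fell in the double over the Hdac1 knockout, Pou2f2 by 0.73 and Pou4f1 by 0.21 (3 fell with centring). At an unadjusted p under 0.05 in limma, the lists without a call in the Hdac2 knockout had 0 genes (FOXA and HMGN) or 1 (liver and POU), and the relatives of Smoc1 below had 2.

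The TCEAL and BEX genes encode a family of small proteins; all measured here are on X in the RefSeq table except Bex6, on chromosome 16. Of 9 besides Tceal8, 1 rose in the Hdac2 knockout, Tceal9, 1.85-fold from 6.91 ± 0.24 to 7.80 (limma adjusted p = 0.000878). In the double over the Hdac1 knockout 5 rose, 0 fell and 4 did not pass (median 0.44), or 4 with each array centred on its median. Bex3 rose 11.7-fold there, Tceal9 6.36-fold, Bex2 5.15-fold and Bex6 3.97-fold, with limma adjusted p between 8.71e-12 and 3.43e-07. The difference from wild type in the Hdac2 knockout was 1.62 for Tceal8, against 0.36 for Bex3, 0.22 for Bex2 and 0.05 for Bex6. Over the 9 genes besides Tceal8 its median was 0.18, and 4 of them had an unadjusted p under 0.05 in limma. Close copies within this family may share probe sequence, and a probe set annotated to both Bex1 and Bex4 was left out.

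**Figure D4:**
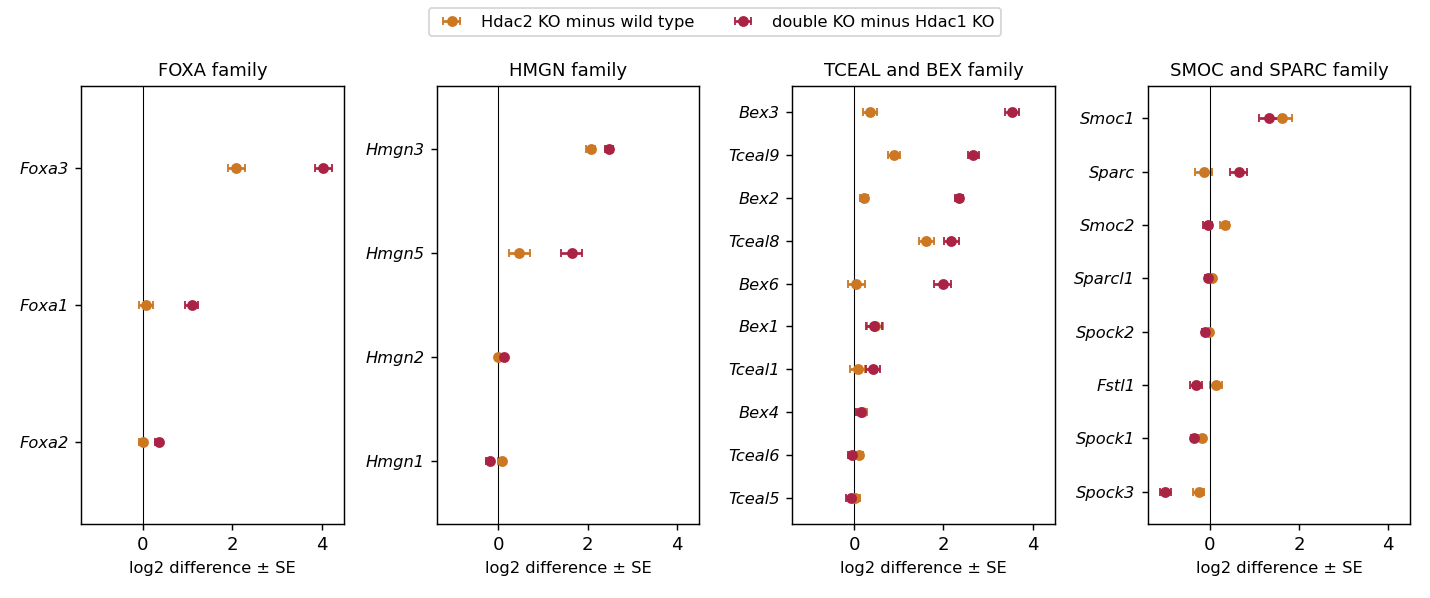
Log2 differences ± SE (horizontal axis) of each measured member of 4 gene families: orange, Hdac2 knockout minus wild type; red, double minus Hdac1 knockout. Foxa3, Hmgn3, Tceal8 and Smoc1 have the largest orange values of their families (2.09, 2.06, 1.62 and 1.62), while Bex3, at 3.54, has a larger red value than Tceal8, at 2.18.

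Pathway genes of the secreted pair, Gdf11 and Smoc1, were counted in the same way. Of 18 genes that process, oppose or receive GDF11, 1 passed in the Hdac2 knockout, Furin, a proprotein convertase named after its values were seen (0.27), and this call was lost with each array centred on its median. In the double over the Hdac1 knockout 4 rose, 3 fell and 11 did not pass (median -0.07); with centring 3 rose and 6 fell. These counts lie near the shares over all probe sets in that comparison, 18.7% higher and 20.1% lower. The inhibitory Smad7 rose 2.89-fold and the type II receptor Acvr2a 1.35-fold, while the type I receptor Acvr1b fell by 0.67 and Tll1, a protease that frees the ligand, by 0.71. Of 7 relatives of Smoc1, 0 passed in the Hdac2 knockout; in the double over the Hdac1 knockout Sparc, a matrix glycoprotein, rose 1.57-fold and Spock3 and Spock1, proteoglycans, fell by 0.99 and 0.35 (1 rose and 3 fell with centring). Of 20 BMP pathway genes 1 rose and 1 fell in the Hdac2 knockout, the ligand Bmp7 (0.57, named after its value was seen) and the receptor Acvr1 (-0.45). At an unadjusted p under 0.05 in limma there were 7. In the double over the Hdac1 knockout 9 rose and 4 fell (8 and 6 with centring). Id2 and Id3, transcriptional targets of BMP signals, rose 2.59-fold and 2.17-fold there, the ligand Bmp2 2.37-fold, and Acvr1 fell by 0.98.

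Neighbours on the chromosome were compared as well. The nearest tested genes on either side in RefSeq gene order, 12 in all and chosen by position, had 1 called higher and 0 lower in the Hdac2 knockout: Sympk, beside Foxa3, at 0.32 (limma adjusted p = 0.0457), a call lost with each array centred on its median (0.0749) or quantile normalization (0.0531). Tceal8 lies between Bex4 and Tceal5, which differed from wild type by 0.18 and 0.02 there. The Bex4 probe set is numbered far from those of the other X-linked family members. It may read a copy elsewhere, and where it maps was not checked. In the double over the Hdac1 knockout 3 neighbours rose and 1 fell. Cd63, beside Gdf11 and encoding a tetraspanin of late endosomes, rose 19.9-fold to 9.12 ± 0.25 (SD, n = 4; limma adjusted p = 6.62e-09), close in size to the 23-fold of Gdf11, but in the Hdac2 knockout it was at 5.60 ± 0.40 against 5.25 ± 0.76 in wild type (limma adjusted p = 0.578). Tex16, beside Hdx, rose 2.5-fold in the double over the Hdac1 knockout and differed by -0.03 in the Hdac2 knockout. Both neighbours of Hmgn3 and of Smoc1 lacked a rise in either comparison.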

How the data were processed

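RNA from pooled oocytes was hybridized to Affymetrix Mouse 1.1 ST arrays after amplification, per the labels' protocols. The deposited table gives 1 log2 value per probe set and array; the log base was inferred from the range of values (2.07 to 12.89). Per the submitters' processing notes MAS5 was used; it is also named, beside GeneSpring v7, SAM and EASE, in the series' design text; how the authors combined them, any array scaling and a genome build were stated in none of the sources used here. The values were used as deposited. The deposited values carry no detection calls, and the 4 arrays per group limit the precision.

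Probe sets with exactly 1 symbol in the platform annotation (21218, of 18820 genes) were fitted with limma 3.58.1 in R 4.3.3, with a mean per genotype over all 16 arrays. Two-sided p-values received a Benjamini-Hochberg adjustment across those probe sets, and a value under 0.05 was a call. Standard errors are limma's, and 95% intervals use the 12 residual degrees of freedom. Genes with several probe sets are represented by the one with the highest mean. Related genes named are, per list, up to 4 whose adjusted p was smallest for double over Hdac1 knockout; genes called most like a member are the 3 with the highest r among probe sets above the median mean. Hdac1 and Hdac2 were named as the targeted genes. The members and gene lists were chosen with earlier results of these data known. Chromosomal neighbours were added after the files were seen. The procedure was tested on simulated data. The alternatives were 2 scalings, a filter on dim probe sets, all probe sets, an intensity trend, array weights, a fit of 2 groups, a 1.4-fold limit, a replicate block and leaving out each array. Replicates share numbers between genotypes, but nothing in the labels pairs them.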

Additional observations from a re-analysis of the deposited data

Results flagged for a closer look

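The effect of Hdac2 deletion with and without Hdac1 was compared in 59 genes: the 45 list and marker genes that the naming rule picked, Furin and Bmp7, and 12 chromosomal neighbours. The difference passed limma's test, adjusted over all probe sets, in 30 of them, 26 of the 45, Furin, and 3 of the 12 neighbours, against 23.3% of all probe sets. The 45 were picked by their p in the double over the Hdac1 knockout, which is one term of this difference, so their count was raised by the choice and nothing is read from it. Values are the log2 effect without Hdac1 minus the effect with it. Among the relatives of Tceal8 it was 3.18 in Bex3, 2.15 in Bex2, 1.94 in Bex6 and 1.78 in Tceal9. Cd63, the neighbour of Gdf11, had 3.96 and Tex16, the neighbour of Hdx, 1.35, while Slc10a1 beside Smoc1 had -0.28. Foxa1 had 1.02 and Foxa2 0.35, and of the liver genes Hnf4a had 1.24, Cebpa 0.86, Ttr 0.86 and Onecut1 -0.72. Hmgn5 had 1.17 and Pou2f2 -0.66. In the GDF11 pathway Smad7 had 1.24, Acvr2a 0.42, Acvr1b -0.61, Tll1 -0.75 and Furin -0.38. In the BMP pathway Id2 had 1.43, Bmp2 1.27, Id3 0.87 and Acvr1 -0.54, and of the relatives of Smoc1, Sparc had 0.78 and Spock3 -0.75. The markers Pecam1, Nr5a2, Kitl and Cyp11a1 had -1.44, -0.84, 0.39 and -0.33. With each array centred on its median the test no longer passed for Foxa2 (limma adjusted p = 0.061) and Sparc (0.0572). No array of the 6 genes stood far from the other 3 of its group by Dixon's test (0 of 24 groups).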

How the results depend on the processing

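The counts of 6 genes higher in the double over the Hdac1 knockout and of 4 over the Hdac2 knockout were obtained in each of the 25 alternatives, and 0 of 6 were called in the Hdac1 knockout throughout. The 6 genes were picked with the double-knockout values known, so these counts describe how the fits vary. They are no separate support for the rise. Uncalled differences near 0 changed sign: with array weights Tceal8 was at -0.01 in the Hdac1 knockout. Leaving out 1 array at a time gave -0.10 to 0.15 for Foxa3, -0.11 to 0.17 for Tceal8, -0.17 to 0.02 for Hdx and -0.07 to 0.20 for Gdf11 in that knockout, and -0.02 to 0.34 for the further step of Smoc1.

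Over all probe sets, a limit of 1.4-fold left 3518 of 8220 calls in the double over the Hdac1 knockout and 2576 of 7155 over the Hdac2 knockout. The 15 calls in the Hdac1 knockout became 24 with dim probe sets left out and 31 with array weights, and ran from 10 to 30 without 1 array (30 without replicate 4 of that knockout); the cause was not tested. Centring each array on its median turned the split in the double over the Hdac1 knockout from 3964 higher and 4256 lower to 3066 and 6238, and over the Hdac2 knockout from 3566 and 3589 to 2734 and 4941; quantile normalization gave 3464 and 5095, and 3087 and 4227. With the replicate number as a block, 8072, 6893 and 12 probe sets were called in the 3 comparisons, and no call of the 6 genes changed. Same-numbered arrays deviated from their group means with correlations between -0.15 and 0.087, so the numbers were not taken to pair the samples. Signals near the array median are dim, and folds that start there may be understated, which was not tested. In wild type Hdx, at 4.50, lay among the array medians of 4.46 to 4.59, and Foxa3, at 4.88, not far above them. Their shares of the total log2 difference and their ratios of effects may depend on this.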
